A study of Mus musculus with 22 samples.

Results

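Adipokines, the proteins that fat tissue releases into the blood and into its own surroundings, were followed at the level of their transcripts in the mammary fat pad of mice. The set holds 9 genes, chosen by name for that role, though with earlier results of these data known: Adipoq, Lep, Retn, Cfd, Rbp4, Nampt, Apln, Rarres2 and Nrg4. All 9 were found among the 52526 gene symbols measured, and all 9 were among the 15138 genes that rose above the floor of the measurement in at least 5 mice and were tested.

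Fat cells store triglyceride and also act as endocrine cells. Leptin (Lep) reports the size of the fat stores to the brain, adiponectin (Adipoq) raises the response of liver and muscle to insulin, and resistin (Retn) and the retinol carrier Rbp4 have been linked to a weaker response to insulin in rodents. Chemerin (Rarres2), apelin (Apln) and neuregulin 4 (Nrg4) act on receptors of neighboring or distant cells, adipsin (Cfd) is the serine protease that starts the alternative complement pathway, and Nampt makes a precursor of NAD. Much of the mammary gland of a young female mouse is such fat.

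The samples were mammary tissue from 22 female C57BL/6J mice of 7 to 8 weeks, each of which had received EO771 cells, a mammary cancer line of the same strain that here carried firefly luciferase, in the fourth mammary fat pad on the left. For 2 weeks before engraftment the mice had a running wheel or only the hub of the wheel, which is the sedentary control. They were injected with liposomes holding PBS or holding clodronate, which kills phagocytes that take it up, 24 hours before engraftment and again at engraftment, and tissue was taken 24 hours after engraftment. The PBS liposomes went to 6 sedentary and 6 running mice and the clodronate liposomes to 5 and 5, with no mouse free of engrafted cells or of liposomes. All were of 1 experiment, and each sample was a separate mouse. The tissue was whole, so that fewer fat cells and less transcript per fat cell cannot be told apart in any value given here.

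Transcripts were read from their 3′ ends by QuantSeq, in which each transcript gives about 1 read whatever its length, so that levels of different genes can be set side by side in CPM, reads scaled to a common library total. Values below 1 CPM had been raised to 1, which is called the floor. Libraries held 13256467 to 20484578 reads, so that the floor stands for no more than 13 to 20 reads. The 9 adipocyte markers (Plin1, Plin4, Cidec, Lipe, Pnpla2, Fabp4, Aqp7, Slc2a4 and Dgat2) were above the floor in every mouse and summed to 5233 to 14421 CPM. Of 7 brown fat markers, Ucp1, the defining one, did not reach 5 mice above the floor, while the other 6 did. The 7 summed to 45.2 to 214 CPM. Some libraries stood apart by their content of other tissue. A lymphocyte marker score (mean log2(CPM + 1) of 12 genes) was 4.21 to 5.63 in 5 mice and under 2.5 in the other 17, and those 5 were control PBS replicate 2, wheel PBS replicate 3 and wheel clodronate replicates 3, 4 and 5. A skeletal muscle marker score (8 genes) ran from 1.64 to 11.3, and was above 8 in control PBS replicate 3, control clodronate replicates 2 and 3 and wheel clodronate replicate 2. Of 10 macrophage markers, the cells that clodronate is meant to remove, 10 had lower means with clodronate than with PBS liposomes in control mice. So did 65.43% of all genes. An unadjusted limma p under 0.05 was reached by 2 of the 10, and by 6.99% of all genes in either direction. In wheel-running mice 7 of the 10 had lower means, as did 49.93% of all genes. There 0 of the 10 had such a p, where 11.6% of all genes did. The summed macrophage markers were 221 to 538 CPM in control mice with PBS, 222 to 321 CPM in control mice with clodronate, 222 to 511 CPM in wheel-running mice with PBS and 220 to 603 CPM in wheel-running mice with clodronate. Results are given below with and without the mice rich in lymphocyte or muscle transcripts.

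The 9 adipokines spanned more than 3 orders of magnitude. Cfd was the 7th most abundant of the 15138 genes, with 7228 ± 2215 CPM (SD, n = 22) and 1.19% of the gene signal, followed by Adipoq with 1539 ± 487 CPM and Retn with 738 ± 241 CPM. The range of Cfd (2827 to 14030.2 CPM) lay above that of Adipoq (865 to 2656 CPM), whereas the ranges of Adipoq and Retn (292 to 1197 CPM) overlapped. Rbp4 (159 ± 63.0 CPM), Lep (137 ± 101 CPM), Rarres2 (89.4 ± 32.6 CPM), Nampt (72.1 ± 16.4 CPM) and Nrg4 (48.3 ± 14.3 CPM) followed. The range of Rbp4 (56.6 to 287 CPM) lay just below that of Retn, and from Rbp4 to Nrg4 each range overlapped the next. Apln, at 3.73 ± 2.75 CPM and at the floor in 5 of 22 mice, lay below all other members. From the lowest to the highest mouse Lep moved 10.1-fold, while Nampt moved 2.25-fold.

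**Figure D1:**
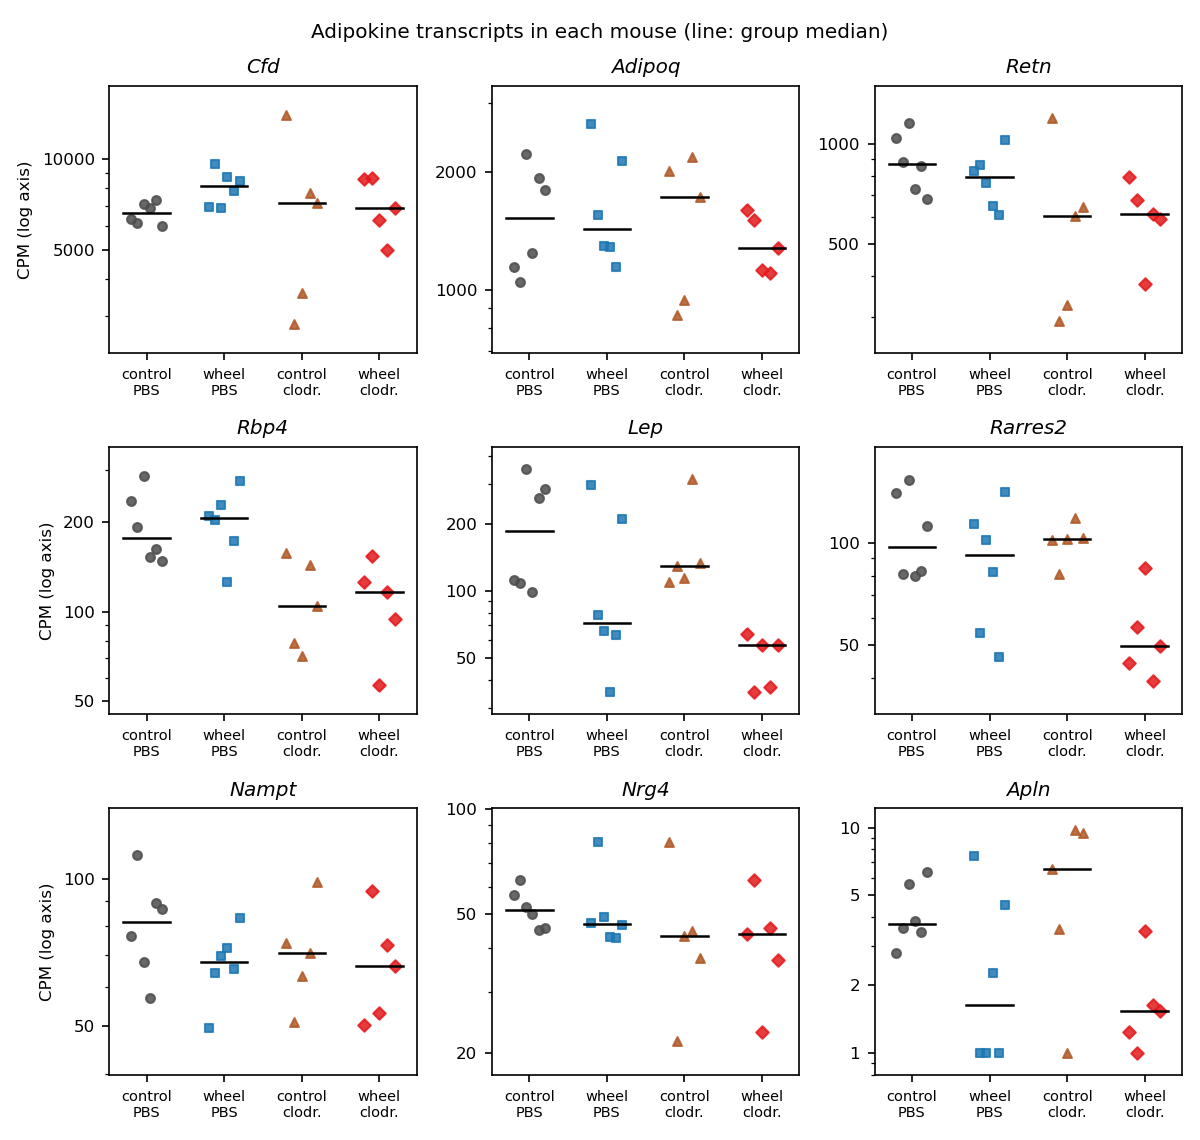
Level of each adipokine in each of the 22 mice (CPM, log axis), by group, with a line at the group median, in order of falling mean level. For Lep, all 5 wheel-running mice with clodronate liposomes lay below all 5 control mice with clodronate, and for Rbp4 most mice with clodronate lay below most mice with PBS liposomes. The share of all genes without overlap was not counted.

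The genes lie apart from each other on GRCm38 (GENCODE M21). Adipoq is on chromosome 16 (23146536 to 23158028, plus strand), Lep on chromosome 6 (29060220 to 29073877, plus), Retn on chromosome 8 (3655770 to 3660110, plus) and Cfd on chromosome 10 (79890853 to 79892655, plus). Rbp4 is on chromosome 19 (38116629 to 38125281, minus), Nampt on chromosome 12 (32819545 to 32853349, plus) and Apln on chromosome X (48025146 to 48034853, minus). Rarres2 is on chromosome 6 (48569696 to 48572789, minus) and Nrg4 on chromosome 9 (55220222 to 55326844, minus). The last 400 bases of the transcripts of 8 members matched no other gene at 97% identity over 100 bases. The 3′ end of Rarres2 overlaps Lrrc61 on the other strand (a match of 125 bases), and that of Nrg4 overlaps Fbxo22 on the other strand. The strand used in counting is not given in the sources used here, so reads from these overlaps cannot be told apart. Lrrc61 stood at 6.21 to 17.6 CPM and Fbxo22 at 11.5 to 37.1 CPM, listed in rows of their own.

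Whether 2 weeks of wheel running went with other adipokine levels was asked first in mice with PBS liposomes. Among the 9 members leptin had the change furthest below 0 on the log2(CPM + 1) scale. Lep had 99.1 to 353 CPM (median 186, mean 203 ± 110 (SD, n = 6)) in control mice, and 35.1 to 297 CPM (median 72.1, mean 125 ± 104 (SD, n = 6)) in wheel-running mice. Of the 6 wheel-running mice, 4 were below the lowest control mouse and 2 lay within the control range. The limma change of Lep was -0.90 (SE 0.43) on the log2(CPM + 1) scale, with an unadjusted p of 0.0462 and a Benjamini-Hochberg adjusted p of 0.988. An exact two-sided permutation of the 12 mice gave p = 0.156. All 8 skeletal muscle markers also had lower means in runners, with a median change of -1.97 and 0 of 8 at an unadjusted limma p under 0.05, and they summed to 26.8 to 3166 CPM in control and 19.6 to 358 CPM in wheel-running mice. Without the muscle-rich control mouse and the other mice of that kind the change of Lep was -0.70 (SE 0.45, unadjusted limma p 0.140), and with each mouse weighted by how closely it followed the limma model (array weights) it was -0.48 (SE 0.42, unadjusted limma p 0.267). None of the 9 members passed an adjusted p of 0.05, as 0 of the 15138 genes did (0%), and 1 of 9 had an unadjusted limma p under 0.05 where 4.91% of all genes did (744). The changes of the other 8 members lay between -0.65 (Apln) and 0.28 (Cfd), around a median of -0.08 over all genes.

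With clodronate liposomes the Lep values of control and wheel-running mice did not overlap. The share of all genes without overlap here was not counted, and 10.4% of all genes (1579) had an unadjusted limma p under 0.05 in this comparison. Control mice had 109.9, 129, 114, 317 and 133 CPM, and wheel-running mice had 64.2, 35.3, 56.9, 37.0 and 57.2 CPM. All 5 wheel-running mice were below all 5 control mice, and the means were 50.1 ± 13.1 and 161 ± 88.0 CPM (SD, n = 5 each). The change was -1.57 (SE 0.47), a ratio of 0.336, with an unadjusted limma p of 0.00263 and an adjusted p of 0.248. The exact two-sided permutation test gave p = 0.00794, which is the smallest p that 252 splits allow. Over both kinds of liposome, Lep was lower with the wheel by 1.24 on the log2 scale (limma change -1.24, SE 0.32, 95% interval -1.89 to -0.58, adjusted p 0.501). Without the 5 mice rich in lymphocyte transcripts this change was -1.27 (limma adjusted p 0.575), without the 4 rich in muscle transcripts -1.17 (0.398), and with the adipocyte marker score in the model -1.01 (SE 0.24, limma adjusted p 0.457).

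Chemerin and apelin, a chemoattractant for macrophages and other leukocytes and a peptide ligand of a receptor on endothelial cells, also had their lowest group means in wheel-running mice with clodronate. For Rarres2, control mice with clodronate had 102, 81.1, 102, 118 and 103 CPM, and wheel-running mice had 44.3, 56.6, 84.1, 39.3 and 49.9 CPM. All but 1 of the wheel-running mice, replicate 3, lay below the control range. The change of Rarres2 was -0.91 (SE 0.26, unadjusted limma p 0.00203, adjusted p 0.238), and the exact permutation p was 0.0159. With PBS liposomes Rarres2 ranges overlapped, at 79.9 to 153 CPM (mean 108) in control and 46.2 to 141 CPM (mean 89.8) in wheel-running mice. Its change over both liposomes was -0.61 (SE 0.18, limma adjusted p 0.532), and -0.53 (SE 0.17) with the adipocyte score as a covariate.

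Apln was close to the floor, which limits its precision. With clodronate it read 6.54, 3.54, 1, 9.76 and 9.50 CPM in control mice and 1.24, 1, 3.46, 1.64 and 1.54 CPM in wheel-running mice, and with PBS 2.77 to 6.35 CPM (median 3.73) in control and 1 to 7.46 CPM (median 1.63) in wheel-running mice. In both pairs the ranges overlapped, and 3 of 6 wheel-running mice with PBS were at the floor where 0 of 6 control mice were. The change with clodronate was -1.17 (SE 0.44, unadjusted limma p 0.0139, adjusted p 0.314, exact permutation p = 0.0714), and over both liposomes -0.91 (SE 0.30, limma adjusted p 0.533).

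With clodronate liposomes, then, 3 of 9 members had an unadjusted limma p under 0.05 for the wheel, all lower, where 10.4% of all genes had one (1579, of which 514 were lower), and 0 of 9 passed the adjusted p, which 1 gene did (0.00661%). The changes of the other 6 ran from -0.14 (Adipoq) to 0.21 (Cfd), and their direction turned with the mice included. Muscle markers were lower in runners here too (8 of 8, median change -1.23, 0 of 8 at an unadjusted limma p under 0.05). Without the 4 muscle-rich mice all 9 members had changes below 0, with -1.73 for Apln, -1.64 for Lep, -1.03 for Rarres2, -0.64 (SE 0.29) for Adipoq, -0.50 for Rbp4, -0.49 for Nrg4, -0.48 for Cfd, -0.43 for Retn and -0.41 for Nampt. Adipoq was then the 4th member with an unadjusted limma p under 0.05 (0.0383, adjusted p 0.328), where 2086 of the 15138 genes had one. In that fit 0 of 9 passed the adjusted p, as 0 of all genes did. Without the lymphocyte-rich mice 4 of 9 changes were below 0, and Adipoq stood at 0.11, Retn at 0.45 and Cfd at 0.52. Over both liposomes 3 of 9 had an unadjusted p under 0.05 (Lep, Apln and Rarres2), against 8.09% of all genes (1224), and 0 of 9 passed the adjusted p, as 0 of all genes did (0%). In the comparison with clodronate 12 of 12 lymphocyte markers were higher in wheel-running mice at an unadjusted limma p under 0.05. Their sum was 12.8 to 18.5 CPM in control mice, with 5 of 12 markers at the floor in all 5, and 14.2 to 766 CPM in wheel-running mice. Without the lymphocyte-rich mice, which leaves 2 wheel-running mice with clodronate, Lep changed by -1.61, Rarres2 by -0.99 and Apln by -1.50 in that comparison (limma adjusted p 0.743, 0.624 and 0.714). The summed adipocyte markers were 5233 to 11656 CPM in control and 5901 to 9026 CPM in wheel-running mice with clodronate, 9 of 9 had lower means in the latter, and with their score as a covariate the changes were -1.07 for Lep, -0.74 for Rarres2 and -0.75 for Apln.

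**Figure D2:**
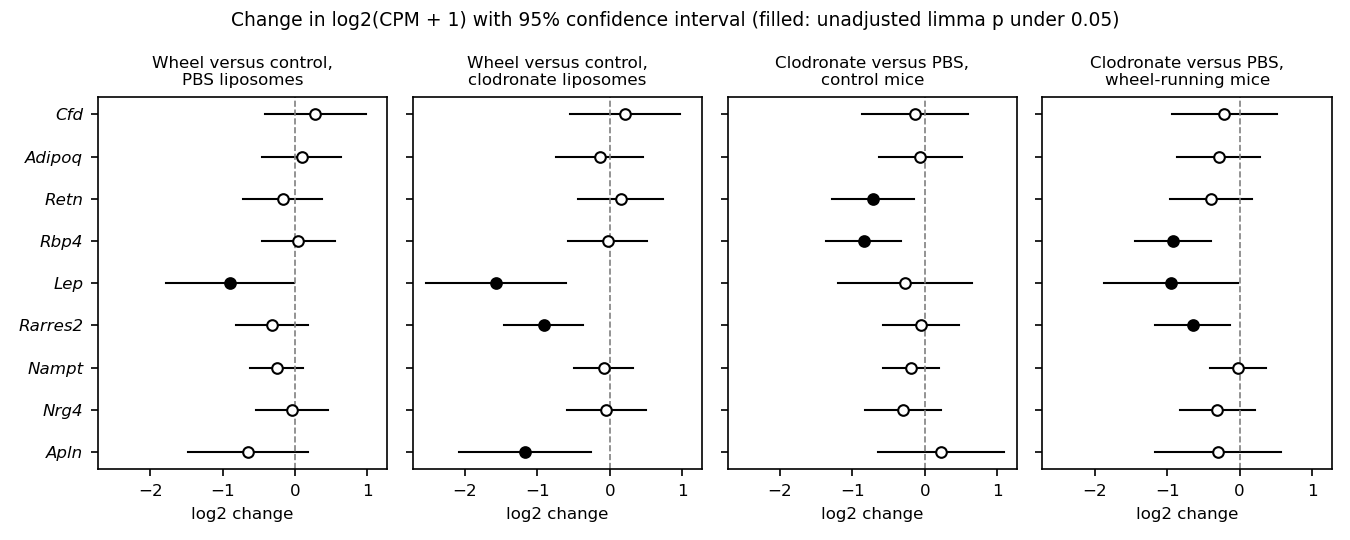
Change of each adipokine (limma, log2(CPM + 1)) with its 95% confidence interval in the 4 comparisons of 2 groups; filled points have an unadjusted p under 0.05. Lep, Rarres2 and Apln lie left of 0 for the wheel with clodronate liposomes, Rbp4 for clodronate in both control and wheel-running mice, and the intervals of Nampt and Nrg4 hold 0 throughout.

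The question put by the clodronate groups is how adipokine levels stood when phagocytes were targeted. The clearest difference was in Rbp4, the blood carrier of retinol, which fat cells make besides the liver. Control mice had 148 to 287 CPM (median 178, mean 197 ± 55.2 (SD, n = 6)) with PBS, and 158, 78.8, 71.0, 144 and 105 CPM with clodronate. Wheel-running mice had 126 to 276 CPM (median 207, mean 203 ± 50.8 (SD, n = 6)) with PBS, and 126, 154, 56.6, 116 and 94.3 CPM with clodronate. In control mice 4 of 5 values with clodronate, and in wheel-running mice 3 of 5, were below every value with PBS of the same activity, and the ranges overlapped in both.

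The change of Rbp4 was -0.84 (SE 0.25, unadjusted limma p 0.00283, adjusted p 0.438) in control mice and -0.92 (SE 0.25, unadjusted limma p 0.00135, adjusted p 0.187) in wheel-running mice, with an exact permutation p of 0.0130 in each. Averaged over activity it was -0.88 (SE 0.18, 95% interval -1.25 to -0.51), with an adjusted limma p of 0.0354. Rbp4 was thus the 1 member of 9 that passed the adjusted threshold in any comparison. All genes gave 31 such calls in that comparison (0.205%), each of them lower with clodronate. Without the 5 lymphocyte-rich mice the change of Rbp4 was -0.65 (limma adjusted p 0.241), without the 4 muscle-rich mice -0.73 (0.336), and with the adipocyte marker score in the model -0.53 (SE 0.16, limma adjusted p 0.314). Within control mice the change was -0.40 (limma adjusted p 0.977) when the muscle-rich mice were left out, and within wheel-running mice it was -0.46 (limma adjusted p 0.728) when the lymphocyte-rich mice were. The call was lost in 11 of 22 fits that left out 1 mouse, with limma adjusted p from 0.00882 to 0.0936 over the 22.

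Resistin, made by fat cells in mice, went the same way with a wider spread. Retn had 682 to 1160.1 CPM (median 869) in control and 609 to 1031 CPM (median 796) in wheel-running mice with PBS. With clodronate control mice had 1197, 292, 326, 607 and 644 CPM, and wheel-running mice had 797, 676, 378, 616 and 593 CPM. The highest mouse of all, control clodronate replicate 1, was in the group with the lowest mean log2 level. The change was -0.71 (SE 0.27, unadjusted limma p 0.0164, adjusted p 0.632, exact permutation p = 0.0996) in control mice, and -0.55 (SE 0.19, limma adjusted p 0.272) averaged over activity. Without control clodronate replicate 1, 146 of the 15138 genes passed the adjusted p averaged over activity, against 31 with all mice. The averaged change of Retn was then -0.69 with a limma adjusted p of 0.0388. Without the muscle-rich mice it was -0.10 in control mice and -0.27 averaged over activity (limma adjusted p 0.994 and 0.780), and with the adipocyte score as a covariate -0.12 averaged over activity (limma adjusted p 0.872).

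In wheel-running mice, Lep and Rarres2 also had lower means with clodronate than with PBS. These groups are the ones described above for the wheel, so the values are not independent of it. The change was -0.95 (SE 0.45, unadjusted limma p 0.0446, adjusted p 0.420) for Lep and -0.65 (SE 0.25, unadjusted limma p 0.0169, adjusted p 0.316) for Rarres2, with exact permutation p of 0.0952 and 0.0779. With that score in the model Lep changed by -0.03 and Rarres2 by -0.33 in this comparison. The summed adipocyte markers of these mice were 8284 to 14421 CPM with PBS and 5901 to 9026 CPM with clodronate. Without the lymphocyte-rich mice, which leaves 2 wheel-running mice with clodronate, 0 of 9 members had an unadjusted limma p under 0.05 here. Of the 15138 genes 1341 did, and 6 of the 9 changes were below 0. Without the muscle-rich mice 2 of 9 members had such a p, where 2279 genes did, and all 9 changes were below 0.

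Among control mice 2 of 9 members had an unadjusted limma p under 0.05 for clodronate, where 6.99% of all genes did (1058), and 0 of 9 passed the adjusted p, as 0 of all genes did (0%). The other 7 changed by between -0.30 (Nrg4) and 0.22 (Apln). Among wheel-running mice 3 of 9 had such a p, where 11.6% of all genes did (1759), and 0 of 9 passed the adjusted p, which 1 gene did (0.00661%). The other 6 changed by between -0.39 (Retn) and -0.02 (Nampt). Averaged over activity 2 of 9 had such a p, where 10.4% of all genes did (1579). All 9 changes were then below 0, with a median of -0.30 where that of all genes was -0.04. Apln, at -0.04, moved to 0.01 with upper-quartile and 0.04 with median-of-ratios scaling, and without the muscle-rich mice 6 of 9 were below 0. Muscle markers were higher with clodronate (8 of 8, median change 1.54, 0 of 8 at an unadjusted limma p under 0.05). The 9 adipocyte markers were all below 0 too, with a median of -0.36, and 1 of them, Dgat2, the enzyme of the last step of triglyceride synthesis, passed the adjusted p (-1.09, SE 0.19, limma adjusted p 0.0145). In control mice the deposited scaling placed the median of all genes at -0.10 with clodronate, and median-of-ratios scaling placed it at 0.02. With PBS liposomes 623 of the 744 genes at an unadjusted p under 0.05 for the wheel were lower, and 273 of 547 were with upper-quartile scaling. For clodronate in control mice 921 of 1058 were lower, and 386 of 689 with upper-quartile scaling. The 14 changes of members with an unadjusted p under 0.05, over the 7 comparisons, kept their sign under each scaling. Of the other 49, 12 changed sign under at least 1 of the scalings, such as Nampt in wheel-running mice, which moved from -0.02 to 0.03 with median-of-ratios scaling and 0.05 with scaling to assigned reads.

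Whether the wheel changed adipokines differently with clodronate than with PBS was tested as an interaction. The 9 interaction terms lay between -0.68 (Lep) and 0.32 (Retn), 0 of 9 passed an adjusted limma p of 0.05, as 0 of all genes did (0%), and the smallest unadjusted p was 0.106 (Rarres2). An unadjusted limma p under 0.05 was reached by Rarres2 with upper-quartile (0.0494) and median-of-ratios scaling (0.0484), by Retn with the adipocyte score as a covariate (0.0174) and by Adipoq without the muscle-rich mice (0.0333), each with an adjusted p of 0.376 or more. The 95% interval for Lep ran from -1.98 to 0.63.

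The windows around the starts of Lep, Rbp4 and Apln are shown because these members had an unadjusted limma p under 0.05 in at least 1 comparison and hold at least 1 of the motifs searched. RefSeq windows (GRCm38.p6, 250 bases before to 50 after the start) were matched for 8 of the 9 members, and Rarres2 was not matched. Searched on both strands were TTGCGCAA, a palindrome that C/EBP factors can bind, the GC box (GGGCGG), the CCAAT box (its name is its letters), the TATA box (searched as TATAA), the nuclear receptor half-site (AGGTCA), the E-box (CACGTG) and the hypoxia response core (ACGTG), which is part of the E-box, and matches are in capitals. Of 32851 windows, 0.183% hold the C/EBP palindrome, 35.7% the GC box, 37.4% the CCAAT box, 24.9% the TATA box, 16.3% the nuclear receptor half-site, 7.15% the E-box and 19.6% the hypoxia response core. The windows are Lep at chr6:29059971-29060270 on the plus strand, Rbp4 at chr19:38124762-38125061 on the minus strand, and Apln at chrX:48034804-48035103 on the minus strand.
Lep: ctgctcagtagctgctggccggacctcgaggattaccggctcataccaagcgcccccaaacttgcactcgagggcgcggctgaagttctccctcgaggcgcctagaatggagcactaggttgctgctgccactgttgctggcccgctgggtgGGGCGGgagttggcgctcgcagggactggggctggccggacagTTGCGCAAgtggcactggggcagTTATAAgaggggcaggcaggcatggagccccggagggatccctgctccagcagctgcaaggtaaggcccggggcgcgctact
Rbp4: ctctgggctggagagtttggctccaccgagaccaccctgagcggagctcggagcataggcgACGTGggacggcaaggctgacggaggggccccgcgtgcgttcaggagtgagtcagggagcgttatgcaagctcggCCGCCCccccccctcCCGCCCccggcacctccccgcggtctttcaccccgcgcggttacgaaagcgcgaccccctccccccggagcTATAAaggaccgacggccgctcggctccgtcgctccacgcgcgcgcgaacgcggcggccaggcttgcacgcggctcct
Apln: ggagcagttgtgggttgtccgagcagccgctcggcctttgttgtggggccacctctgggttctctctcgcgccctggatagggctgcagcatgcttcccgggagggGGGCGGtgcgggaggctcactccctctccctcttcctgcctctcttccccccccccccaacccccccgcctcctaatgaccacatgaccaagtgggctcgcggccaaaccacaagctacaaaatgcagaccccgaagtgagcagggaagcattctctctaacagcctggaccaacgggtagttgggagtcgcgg
The Lep window holds 1 C/EBP palindrome, 1 GC box and a TATA box that overlaps its own reverse complement, and Lep is the only 1 of the 8 matched members with the palindrome. This Rbp4 window, the more downstream of its 2 starts, holds 2 GC boxes, 1 TATA box and 1 hypoxia response core, and the other holds 1 CCAAT box. The Apln window holds 1 GC box. Elsewhere Adipoq holds 3 CCAAT boxes, Nampt 5 GC boxes, 1 half-site and 1 hypoxia response core, Nrg4 2 half-sites and 2 hypoxia response cores, and Retn and Cfd none of the 7. A match of letters is a description of the window and does not show that a factor binds there.

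The most abundant members moved less between groups than between mice. Adipoq had group means of 1568 ± 482 (control PBS, n = 6), 1681 ± 594 (wheel PBS, n = 6), 1549 ± 612 (control clodronate, n = 5) and 1325 ± 224 CPM (wheel clodronate, n = 5; SD in each). Cfd had 6629 ± 547, 8086 ± 1091, 7065 ± 4442 and 7081 ± 1567 CPM in the same order. Control mice with clodronate held both its highest and its lowest values, at 14030.2 CPM in replicate 1 and 2827 and 3597 CPM in replicates 2 and 3, the latter both rich in muscle transcripts. With PBS liposomes 4 of 6 wheel-running mice had more Cfd (7850 to 9671 CPM) than all 6 control mice (6008 to 7326 CPM) and the other 2 lay within the control range (6889 and 6906 CPM), with an exact two-sided permutation p of 0.0195. That value was picked from 36 such tests without adjustment after they were seen, and the limma p, with the spread of all 4 groups, was 0.414 before adjustment.

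Nampt, the enzyme that limits the salvage of nicotinamide to NAD, was 81.5 ± 19.0, 67.4 ± 10.96, 71.4 ± 17.5 and 67.4 ± 17.7 CPM in control PBS, wheel PBS, control clodronate and wheel clodronate mice (SD, n = 6, 6, 5 and 5). Nrg4, a ligand of the ErbB4 receptor, was 52.2 ± 6.79, 51.5 ± 14.4, 45.5 ± 21.5 and 42.5 ± 14.4 CPM in that order. For both, all pairs of groups overlapped, and no comparison of all 22 mice had an unadjusted limma p under 0.05. Without the muscle-rich mice Nampt changed by -0.36 with the wheel averaged over liposomes (SE 0.13, unadjusted limma p 0.0155, adjusted p 0.423).

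Each adipokine was next set against the adipocyte marker score of the same mouse, the mean log2(CPM + 1) of the 9 markers, none of which is an adipokine. Both measures come from the same library and share its composition. Over 22 mice the relation was closest for Adipoq (Pearson r 0.867, Spearman rho 0.899, permutation p 1e-05 for both, and 4.5e-05 and 9e-05 after Benjamini-Hochberg adjustment over the 9 relations). Retn (r 0.767, rho 0.696), Rbp4 (r 0.763, rho 0.687) and Lep (r 0.689, rho 0.685) followed, with permutation p for r of 1e-05, 5e-05 and 0.0004, adjusted to 4.5e-05, 0.00015 and 0.0009, and an adjusted p for rho of 0.00148 in all 3. For Rarres2 r was 0.571 and rho 0.636 (adjusted permutation p 0.0103 and 0.00347), for Apln 0.564 and 0.555 (0.0103 and 0.0134), for Cfd 0.530 and 0.456 (0.0113 and 0.0453), and for Nrg4 0.493 and 0.438 (0.0214 and 0.0496). Nampt did not pass (r 0.258, rho 0.273, permutation p 0.246 and 0.218). Before adjustment the permutation p for r of Rarres2, Apln, Cfd and Nrg4 were 0.00597, 0.0069, 0.00882 and 0.0191. The value 1e-05 is the smallest that 100000 permutations can give.

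Without the 2 mice farthest from the median score, control clodronate replicate 2 and wheel clodronate replicate 3, r was 0.847 for Adipoq, 0.766 for Lep, 0.702 for Apln, 0.668 for Rarres2, 0.666 for Rbp4 and 0.663 for Retn. For Cfd it was 0.405, for Nrg4 0.172 and for Nampt 0.033, so that the relation of Nrg4 rests on those mice. Within the 12 mice with PBS and the 10 with clodronate, r was 0.898 and 0.932 for Adipoq, 0.770 and 0.564 for Lep, and 0.576 and 0.723 for Rbp4. It was 0.654 and 0.714 for Retn, 0.662 and 0.374 for Rarres2 and 0.600 and 0.673 for Apln. For Cfd it was 0.079 and 0.683, for Nrg4 0.012 and 0.559 and for Nampt -0.052 and 0.419, so that with PBS alone these 3 showed little relation to the score. With each group's mean removed, r was 0.927 for Adipoq, 0.679 for Lep and 0.692 for Rbp4. For Retn it was then 0.775, for Apln 0.641, for Cfd 0.610, for Rarres2 0.439, for Nrg4 0.398 and for Nampt 0.205.

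**Figure D3:**
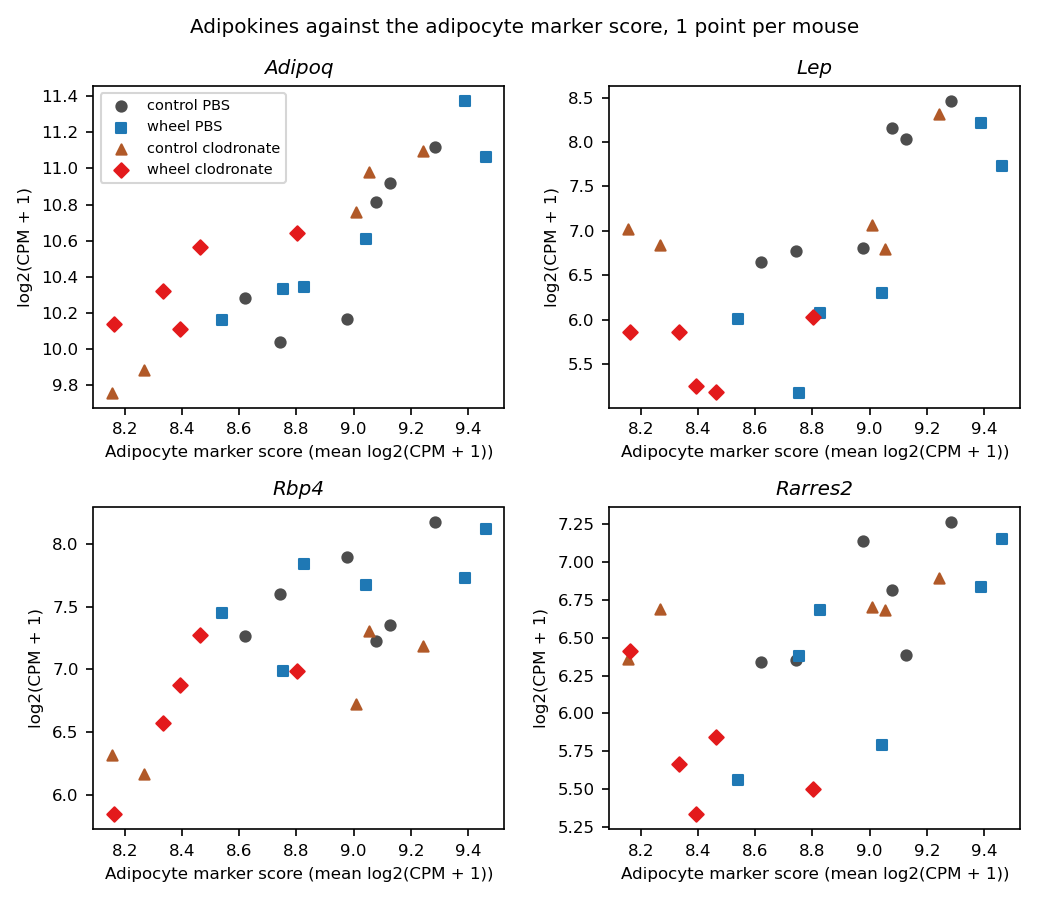
Level of Adipoq, Lep, Rbp4 and Rarres2 (log2(CPM + 1)) against the adipocyte marker score, with 1 point per mouse and a marker for each group. Adipoq follows the score most closely (r 0.867), and the points of wheel-running mice mostly lie below those of control mice at like scores for Lep.

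Between the members themselves, 33 of 36 pairs had an r above 0 over the 22 mice (median 0.359), and 13 passed a permutation p of 0.05 after adjustment over the 36 pairs. A pair of groups stood out in this matrix, which was arranged after its values were seen. Lep, Apln and Rarres2 went together, with r of 0.732 (Lep and Apln), 0.718 (Lep and Rarres2) and 0.657 (Apln and Rarres2), rho of 0.689, 0.759 and 0.624, and permutation p for r of 0.00011, 0.00024 and 0.00099, adjusted to 0.00132, 0.00173 and 0.00509. Retn, Rbp4 and Nrg4 went together, with r of 0.856 (Retn and Rbp4), 0.759 (Retn and Nrg4) and 0.674 (Rbp4 and Nrg4), rho of 0.831, 0.800 and 0.723, and permutation p for r of 1e-05, 0.0001 and 0.00054, adjusted to 0.00036, 0.00132 and 0.00324. Between the groups r was lower, such as 0.262 for Lep and Retn, 0.027 for Lep and Nrg4 and 0.119 for Rbp4 and Apln. Adipoq was related to members of both, with r of 0.620 to Lep and 0.623 to Retn, and Nampt to none of them after adjustment.

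The pairs differ in how far they hold within subsets of mice. With PBS and with clodronate, r was 0.807 and 0.738 for Lep and Apln, 0.594 and 0.814 for Lep and Rarres2, and 0.824 and 0.834 for Retn and Rbp4. For Apln and Rarres2 it was 0.665 and 0.710. For Retn and Nrg4 it was 0.410 and 0.802, for Rbp4 and Nrg4 0.301 and 0.820, and for Retn and Cfd -0.077 and 0.915. Across the 2 groups of genes it was 0.663 and -0.175 for Retn and Rarres2, 0.550 and -0.137 for Rbp4 and Rarres2, and 0.534 and -0.105 for Lep and Retn. With PBS alone these 3 pairs thus had a higher r than the pairs of Nrg4 with Retn and Rbp4. The permutations, like those for the adipocyte score, moved mice across the 4 groups, so their p include differences between group means. With group means removed, r was 0.623 for Lep and Apln, 0.490 for Lep and Rarres2, and 0.520 for Apln and Rarres2. It was 0.837 for Retn and Rbp4, 0.732 for Retn and Nrg4, and 0.655 for Rbp4 and Nrg4. For Adipoq it was then 0.746 with Lep, 0.695 with Apln and 0.423 with Rarres2. Without the 2 mice farthest from the median of the second gene, r was 0.727 for Lep and Apln and 0.674 for Lep and Rarres2. It was 0.784 for Retn and Rbp4 and 0.527 for Retn and Cfd. It was then 0.630 for Apln and Rarres2, 0.543 for Retn and Nrg4 and 0.443 for Rbp4 and Nrg4.

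**Figure D4:**
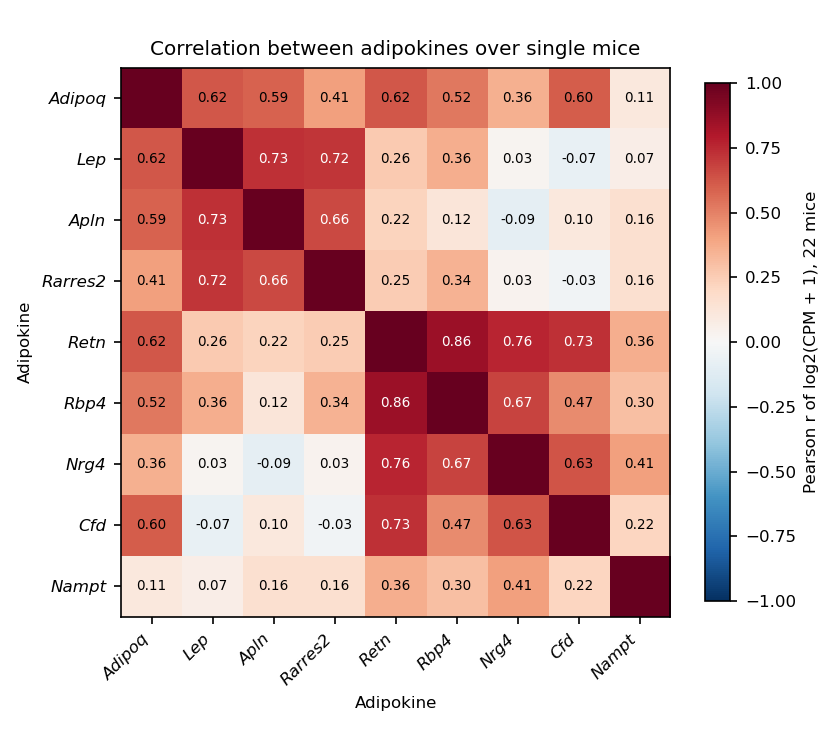
Pearson r between the 9 adipokines over 22 mice, from log2(CPM + 1), in an order arranged by hand after the values were seen. Lep, Apln and Rarres2 form a block of r from 0.657 to 0.732, which runs from 0.490 to 0.623 with group means removed. Retn, Rbp4 and Nrg4 form a block from 0.674 to 0.856 that in PBS mice alone runs from 0.301 to 0.824. Values are near 0 between Nrg4 or Cfd and the first block.

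The genes most like each adipokine were taken as the 3 with the highest r over the 22 mice among the 15138 genes. For Lep they were Sncg (r 0.955), Sod3, the extracellular superoxide dismutase (0.942), and Itih5 (0.932). For Adipoq they were Car3, a carbonic anhydrase abundant in fat and muscle (0.925), Pnpla2, the adipose triglyceride lipase (0.920), and Rras (0.905). For Retn they were Cdo1, cysteine dioxygenase (0.963), Car5b (0.927) and Ifi27 (0.920), and for Rbp4 they were Ptger3, a prostaglandin E receptor (0.946), Gpt, alanine aminotransferase (0.898), and Bcap31 (0.888). For Rarres2 they were Timp4, an inhibitor of metalloproteinases (0.898), Morc4 (0.824) and Slc6a13 (0.820), and for Apln they were Prps1 (0.838), Anxa6 (0.829) and Pigyl (0.806). For Cfd they were Sfxn1 (0.879), Adig, adipogenin (0.845), and Sod1 (0.834), and for Nrg4 Sfxn1 again (0.800), Scd1, which desaturates fatty acids (0.796), and Acsl1, which activates them (0.782). The rank correlations of Cfd with Sfxn1 and Sod1 were lower, at 0.581 and 0.423. Nampt had the least close neighbors, Ube2w (0.716), Mfsd4b3 (0.691), with a mean of 1.19 CPM near the floor, and B4galt1 (0.687). As maxima over 15138 genes these values are a description.

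Genes that serve the adipokines were described from 6 lists, none of which holds a gene that passed the adjusted p in any of the 7 comparisons. Of 11 tested receptors and binding partners, 1 had an unadjusted limma p under 0.05 for the wheel averaged over liposomes (higher) and 1 for clodronate averaged over activity (lower). The smallest p was that of Lepr, the leptin receptor, for the wheel with clodronate liposomes. Lepr stood at 1 to 1.10 CPM in control and 1.24 to 9.84 CPM (median 5.10) in wheel-running mice, a change of 1.48 (SE 0.41, unadjusted limma p 0.00159, adjusted p 0.232). The groups did not overlap, but their nearest mice stood at 1.10 and 1.24 CPM, near the floor. The share of all genes without overlap in this comparison was not counted. With PBS liposomes Lepr read 1 to 5.85 CPM in control and 1 to 9.46 CPM in wheel-running mice.

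Of 7 tested genes of the alternative complement pathway, in which Cfd acts, 1 was lower and 2 were higher for the wheel and 2 were lower for clodronate at that p in the averaged comparisons. Cd55, which breaks up the convertase of that pathway, read 7.79 to 20.1 CPM (median 11.6) in control and 16.3 to 37.6 CPM (median 30.96) in wheel-running mice with clodronate, a change of 1.07 (SE 0.30, limma adjusted p 0.232). Lepr and Cd55 were both named from the comparison in which lymphocyte markers were higher in runners, and the part of those cells in their values was not tested. Of 12 adipocyte transcription factors, 0 had such a p for the wheel, and 3 were lower and 1 higher for clodronate. Pparg, the main regulator of fat cell formation, changed by -0.70 (SE 0.23, limma adjusted p 0.249) with clodronate averaged over activity, from medians of 109.8 and 76.8 CPM in control and wheel-running mice with PBS to 49.3 and 43.3 CPM with clodronate.

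Of 14 tested other secreted factors of fat, 0 had such a p for the wheel and 1 was lower for clodronate. Fbn1, whose protein is the precursor of asprosin, had the smallest p in the 6 lists, with 30.6 to 53.4 CPM (median 39.1) with PBS and 13.9 to 30.6 CPM (median 16.2) with clodronate in wheel-running mice. Its change was -1.12 (SE 0.24, unadjusted limma p 9.68e-05, adjusted p 0.109). Of 5 chaperones of adiponectin assembly, 0 had such a p for the wheel and 1 was lower for clodronate, with Gstk1, which helps its assembly, at -0.50 (SE 0.24, limma adjusted p 0.422) in wheel-running mice. Of 8 genes of NAD salvage, in which Nampt acts, 0 had such a p for the wheel and 1 was lower for clodronate, which was Nadk, the NAD kinase, at -0.30 (SE 0.13, limma adjusted p 0.430). These counts stand beside 8.09% of all genes for the wheel and 10.4% for clodronate.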

How the data were processed

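Mammary RNA of 22 mice was sequenced with QuantSeq 3′ FWD. The authors mapped reads with STAR 2.5.3a to GRCm38, per the submitters' processing notes, and deposited a signal per gene and mouse in CPM, with values below 1 raised to 1. The counting tool is not given in the sources used here. Above the floor 100% of values were whole multiples of 1 read, which gave the depth. Reads at the floor are lost, so count tests were not run. Unmapped, multimapping and unassigned reads were left out of the genes (57.4% to 64.6% of reads were assigned to genes), and where a symbol had several rows (106 symbols), that of highest mean was taken. The CPM total includes the reads not assigned to genes. The assigned share was 60.55% to 64.65% in control PBS, 58.47% to 63.89% in wheel PBS, 58.78% to 63.17% in control clodronate and 57.4% to 58.65% in wheel clodronate mice.

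Groups and replicate numbers came from the labels. log2(CPM + 1) was fitted with limma 3.58.1 in R 4.3.3 (4 group means, variance trend), in 7 comparisons. Benjamini-Hochberg adjustment was over the 15138 genes that exceeded the floor in 5 mice or more. The step was also run on simulated counts. These had no differences in tissue content between mice, unlike these libraries, so they cannot show how the fit handles such differences. Comparisons share groups and are not independent. Exact permutation tests of single members, 36 in all and without adjustment, and correlations between members were added after the values were seen, as was the fit without muscle-rich mice. Correlations used 100000 permutations in Python 3.11.15 with scipy 1.17.1. All members were named. Changes are printed where the unadjusted limma p was under 0.05, and from each list the gene with the smallest p. The members, lists and tests were chosen with earlier results of these data known. Same-numbered mice of different groups were different animals, and numbers were not taken as pairs in the main fit. The correlations of their deviations ran from -0.39 to 0.52, with means of -0.08 to 0.18 by pair of groups. Alternatives covered pseudocount, filter, scaling, variance model, covariates and leaving out each mouse.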

Additional observations from a re-analysis of the deposited data

Results flagged for a closer look

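A single mouse lay far from the rest of its group in 2 cases, by the gap to the nearest mouse set against the range of the group. Lep in control clodronate replicate 4 was 8.31 on the log2(CPM + 1) scale (317 CPM), where the next mouse was at 7.07, a gap of 0.818 of the range. Nrg4 in wheel PBS replicate 2 was 6.35 (80.6 CPM), where the next was at 5.65, a gap of 0.783 of the range. Of 40 groups examined, chance alone flags about 1 in 20, or 2 in all.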

How the results depend on the processing

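For clodronate averaged over activity, where 1 member (Rbp4) was called, 0 were called with no filter on low values, upper-quartile scaling, scaling to assigned reads, median-of-ratios scaling, no variance trend, the replicate block, the adipocyte or the lymphocyte score as a covariate, or without the lymphocyte-rich or the muscle-rich mice. Rbp4 then changed by between -0.53 (adipocyte score) and -0.88 (filter, trend), with adjusted limma p of 0.0524 to 0.336, and the cause was not tested. Leaving out 1 mouse gave 0 to 2 calls. The call was lost without control PBS replicate 1, 2 or 3, wheel PBS replicate 1, 3 or 6, control clodronate replicate 2, 3 or 5, or wheel clodronate replicate 3 or 5. Retn was added without control clodronate replicate 1, a fit in which 146 of all genes were called, against 31 with all mice. With array weights per mouse 2 members were called for the wheel with clodronate liposomes (Lep and Rarres2, adjusted limma p 0.0419 and 0.0446) and 1 for clodronate in wheel-running mice (Rbp4, 0.00197), where 0 were called otherwise. With those weights 958 and 1596 of the 15138 genes were called in these 2 comparisons, against 1 gene in each in the main fit. The 6 other comparisons gave 0 calls in each fit without 1 mouse. For the relation to the adipocyte score 8 of 9 members passed, and 6 to 8 did without 1 mouse or under the other alternatives. The 14 changes of members with an unadjusted p under 0.05 kept their sign under each alternative and without each mouse, while of the other 49 changes 31 changed sign under at least 1 alternative and 21 without 1 mouse. The replicate block, a pairing by number of mice that were different animals, changed no other call. Alternatives that leave out lymphocyte-rich mice leave 2 wheel-running mice with clodronate. Changes below the floor of 13 to 20 reads were not detectable, which touches Apln most.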
